A study of Mus musculus with 24 samples.

Results

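The genes that couple the electrical signal of a skeletal muscle fibre to calcium release, and that buffer and retrieve the calcium afterwards, were followed in mouse calf muscle after an experimental muscle pain stimulus. The set was a fixed list of 10 gene symbols: Atp2a1, Casq1, Pvalb, Ryr1, Cacna1s, Cacng1, Jsrp1, Trdn, Srl and Sln. All 10 were found by Ensembl identifier among the 54532 genes of the deposited tables, and all 10 passed the filter on low counts in every fit. The samples were left gastrocnemius muscle from wild-type C57/BL6 mice, with 4 RNA-seq samples in each of 6 groups, labelled as taken at 24 h. Female and male controls were sedentary and received 2 injections of pH 7.2 saline into that muscle. Female and male mice with sedentary pain received 2 injections at pH 5.0, with 6 min of electrically evoked contractions of the muscle before the second. Female and male mice with active pain received the same stimuli after 8 weeks with a running wheel. The labels give the controls no contractions, so acid and contraction cannot be told apart, and a running group without pain was not analysed here. They do not say that every sample is a separate animal, so p-values measure the spread between these samples.

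In a resting fibre an action potential spreads into the transverse tubules, where the voltage sensor, a calcium channel built on Cacna1s, mechanically opens the calcium release channel Ryr1 in the facing membrane of the sarcoplasmic reticulum. Trdn and Jsrp1 encode proteins of that junction, Casq1 is the main calcium-binding protein inside the reticulum, Pvalb buffers calcium in the cytosol of fast fibres, and the pump Atp2a1 returns calcium to the store. Sln is a small membrane protein that inhibits the pump. The gastrocnemius of mice consists mostly of fast fibres, which hold much of this machinery.

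Sequencing depth was between 17612139 and 34039699 gene counts per sample, and the 10 genes took 3.95% to 6.37% of them. Mitochondrial genes took 2.75% to 12.6%. Skeletal fibre markers (Acta1, Ckm, Myh4, Ttn, Neb, Mb and Des) were abundant in every sample, at a summed 86459 to 143132 CPM (counts-per-million). CPM of single genes are counts divided by library size after TMM scaling, which corrects library sizes for composition. Sums over markers were divided by the total counts without that scaling. It would lower the sums of female sedentary pain replicates 3 and 4, whose TMM factors were 1.22 and 1.21. Macrophage and monocyte markers differed widely: their summed level over 10 genes was 103 to 242 CPM in female controls and 522, 753, 5158 and 7391 CPM in female sedentary pain replicates 1 to 4. All 10 of those markers passed the test as higher in female sedentary pain, as did the 4 of 5 neutrophil markers that were tested. Mitochondrial genes took 8.59% to 11.02% of counts in female controls and 8.22%, 3.85%, 5.87% and 2.75% in female sedentary pain replicates 1 to 4. Adipocyte markers summed to 190, 155, 3116 and 1271 CPM in female control replicates 1 to 4 and to 156 to 389 CPM in female sedentary pain. Fibroblast markers summed to 621 to 843 CPM in female controls and to 869, 450, 1820 and 1362 CPM in female sedentary pain replicates 1 to 4. In bulk muscle, fewer fibres and less RNA per fibre cannot be told apart.

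Levels of different genes were compared only per length, in TPM (transcripts-per-million, computed with the exonic length of each gene). The buffer and the pump were the most abundant members. Over the 24 samples the median was 27500 TPM for Pvalb and 21430 TPM for Atp2a1, followed by 4654 TPM for Casq1. The junctional and voltage-sensor genes formed a lower tier, with medians of 800.9 TPM for Jsrp1, 715.9 for Cacng1, 680.5 for Srl, 383.3 for Cacna1s, 333.3 for Ryr1 and 294.2 for Trdn. Sln was close to the detection limit at a median of 2.81 TPM. In female controls the ranges of neighbours in this order did not overlap except for Cacng1 and Srl, Cacna1s and Ryr1, and Ryr1 and Trdn. In male controls Jsrp1 and Cacng1 overlapped, and Srl was above Cacng1 in all 4, against this order. Cacna1s was above Ryr1 in all 4 female controls, whereas in male controls Ryr1 was above Cacna1s in all 4. Neither gene passed the test between these controls (adjusted p = 0.362 for Ryr1 and 0.680 for Cacna1s, edgeR). The libraries of these controls also differed in how levels depend on gene length, as described below. The part of that in the reversal was not tested.

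The fast-fibre isoform made up nearly all of each family. Of the summed TPM of the SERCA pumps Atp2a1, Atp2a2 and Atp2a3, Atp2a1 accounted for 99.14% to 99.95% in the 24 samples. Casq1 accounted for 99.15% to 99.89% of the 2 calsequestrins, and Ryr1 for 99.92% to 99.99% of Ryr1 and Ryr3 together. The lowest pump share was in a female active pain sample.

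**Figure D1:**
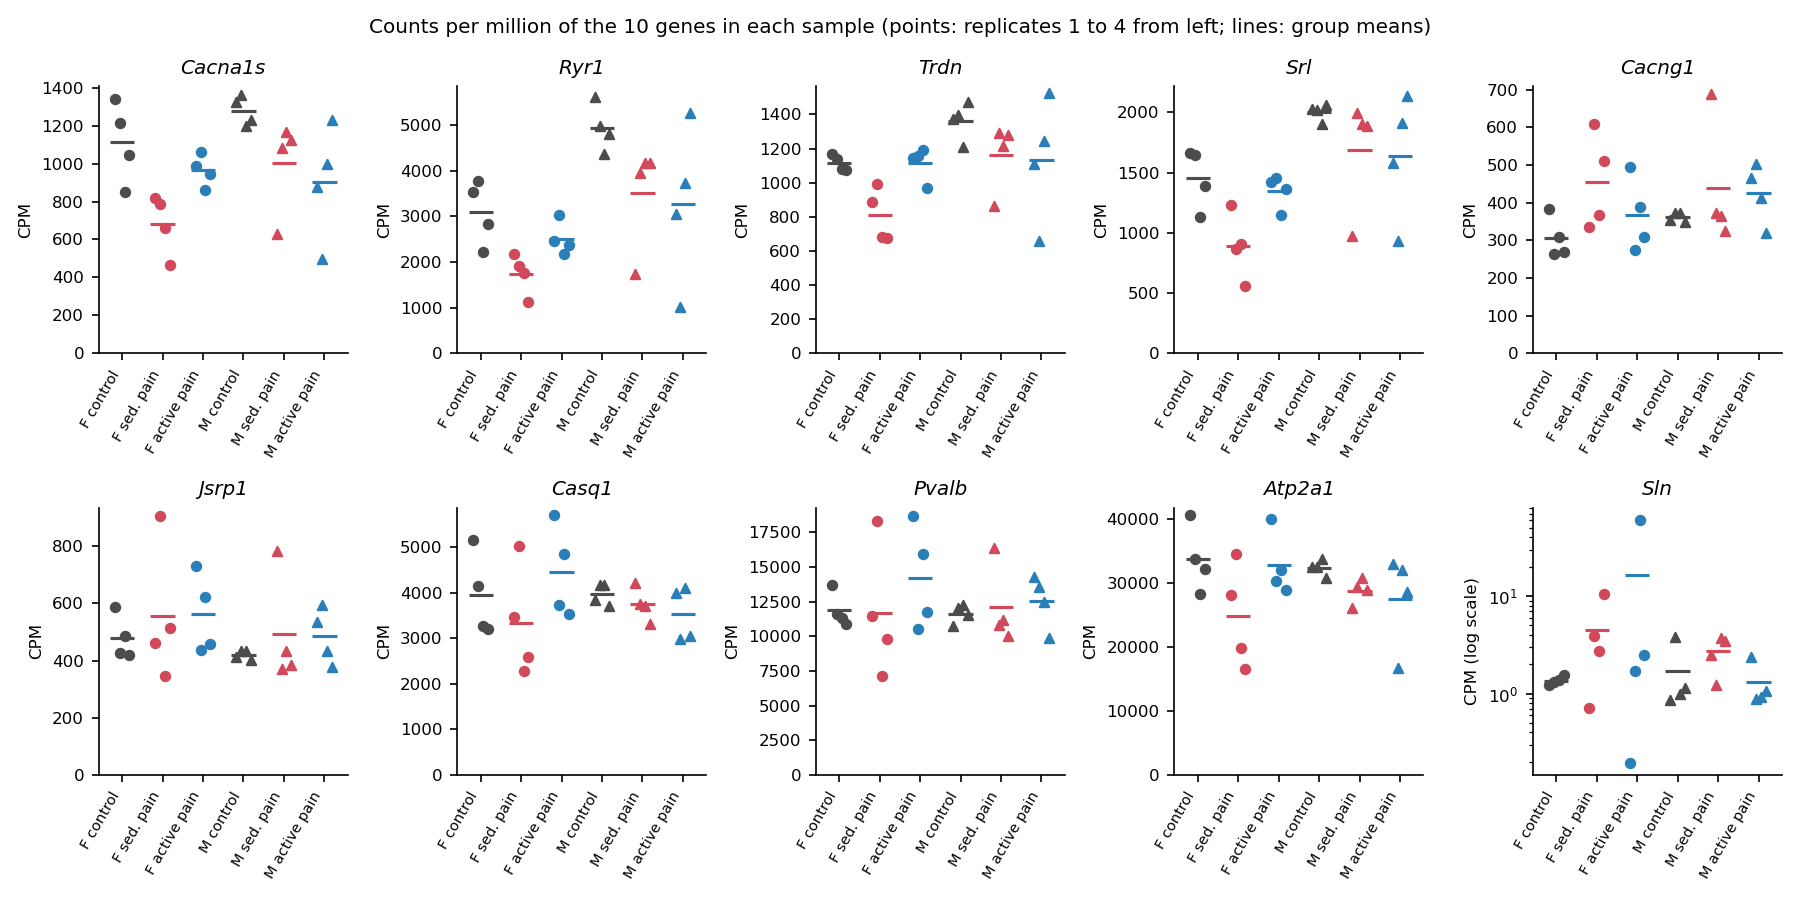
CPM of each gene (vertical axes; Sln on a log scale) in the 6 groups, with 1 point per sample, replicates 1 to 4 from left to right, circles for females, triangles for males and a line at each group mean. Ryr1, Cacna1s and Trdn of female sedentary pain lie below all female controls, and male sedentary pain replicate 1 lies apart from its group for Ryr1, Cacna1s, Srl, Cacng1 and Jsrp1.

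The pain stimulus was first compared with its control in sedentary females. Of the 10 genes, 4 passed the test as lower in female sedentary pain than in female controls and none as higher: the release channel Ryr1, its voltage sensor Cacna1s, the junctional protein Trdn and the luminal protein Srl. The test was edgeR's quasi-likelihood test with Benjamini-Hochberg adjustment over all 14511 genes tested, called at 0.05. By that rule 33.5% of all genes were called, 13.9% as lower and 19.6% as higher, so calls were common across the transcriptome. The median log2 change of the 10 genes was -0.36, against -0.02 over all genes tested. Groups did not overlap for 3 members, all lower, where 26.3% of all genes did not overlap and 11% did so as lower. All 4 calls were lost in a fit with 1 surrogate variable, an unlabelled factor estimated from the counts, where 0.786% of all genes were called. In that fit the log2 differences were -0.11 for Ryr1, -0.12 for Cacna1s, -0.24 for Trdn and -0.011 for Srl, and the median of the 10 genes was 0.015.

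Ryr1 encodes the calcium release channel and is the longest of the 10 transcripts. Female controls had 3532, 3780, 2224 and 2839 CPM and female sedentary pain samples 2172, 1910, 1764 and 1124 CPM. Every sedentary pain sample lay below every control, by a narrow margin between the lowest control and the highest pain sample. The group means were 3094 ± 704 and 1743 ± 446 CPM (SD, n = 4 each), and the fitted fold was 0.557, a log2 change of -0.84 ± 0.23 (SE, adjusted p = 0.0184, edgeR).

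Cacna1s encodes the pore-forming subunit that senses voltage. Its female controls stood at 1342, 1215, 851.7 and 1046 CPM, and the sedentary pain samples at 820, 787, 661 and 468 CPM. The groups again did not overlap. The log2 change was -0.72 ± 0.20 (adjusted p = 0.0187, edgeR), a fold of 0.607, and the group means were 1114 ± 212 and 684 ± 160 CPM (SD, n = 4 each).

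Trdn encodes triadin, which anchors calsequestrin to the release channel. It was at 1168, 1139, 1078 and 1072 CPM in female controls and at 885.8, 989.8, 682 and 673.9 CPM in sedentary pain. All 4 pain samples were below the closely spaced controls. The log2 change was -0.48 ± 0.15 (adjusted p = 0.0312, edgeR), the smallest of the 4 called changes.

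Srl encodes sarcalumenin, a calcium-binding glycoprotein of the reticulum that is known to support the pump. Female controls had 1663, 1650, 1129 and 1388 CPM, and sedentary pain samples 1229, 869, 910.9 and 561.2 CPM. Here the groups overlapped, because sedentary pain replicate 1 lay above control replicate 3. The log2 change was -0.72 ± 0.22 (adjusted p = 0.0290, edgeR).

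Sequence upstream of the gene start was at hand for 5 of the 10 genes. RefSeq gives 250 bases before its own gene start, which for Ryr1, Cacna1s and Atp2a1 lies 28, 61 and 35 bases inside the gene as the GRCm38 annotation places it. Shown are the bases outside the annotated gene for Ryr1 and Cacna1s, whose levels correlated most closely, and for the pump Atp2a1 for comparison (RefSeq, GRCm38.p6, gene strand, 5′ to 3′, with any CAGCTG E-box in capitals). The intervals are chr7:29125180-29125401 (minus strand), chr1:136052561-136052749 (plus strand) and chr7:126463109-126463323 (minus strand).
Ryr1: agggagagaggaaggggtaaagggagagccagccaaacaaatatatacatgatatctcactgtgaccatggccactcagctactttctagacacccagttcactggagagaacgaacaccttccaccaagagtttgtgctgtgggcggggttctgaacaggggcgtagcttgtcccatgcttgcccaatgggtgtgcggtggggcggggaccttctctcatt
Cacna1s: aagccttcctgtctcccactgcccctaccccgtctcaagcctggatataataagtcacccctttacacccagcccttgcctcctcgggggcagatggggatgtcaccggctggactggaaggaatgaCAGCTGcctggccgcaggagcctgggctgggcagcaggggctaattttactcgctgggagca
Atp2a1: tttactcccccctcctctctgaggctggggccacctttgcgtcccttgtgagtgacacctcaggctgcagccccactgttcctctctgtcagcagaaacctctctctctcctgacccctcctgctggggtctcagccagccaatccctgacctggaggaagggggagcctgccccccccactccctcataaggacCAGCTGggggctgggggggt
CAGCTG reads the same on both strands and occurred in 13.0% of the 32851 RefSeq promoters of 250 bases. Searched over those 250 bases, it was found once in Cacna1s, beginning 123 bases before the RefSeq start, once in Atp2a1 at 55 bases and once in Casq1 at 195 bases. Neither Ryr1 nor Pvalb held it within this window. The letters TATAAA (12.4% of promoters), searched on both strands, were found in 0 of the 5 windows.

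The remaining members of the voltage sensor and the junction did not follow. Cacng1, the gamma subunit of the muscle calcium channel, was at 383.2, 264.8, 308.6 and 269.1 CPM in female controls and at 334.3, 608.1, 367.1 and 511.8 CPM in sedentary pain. The highest control exceeded 2 of the 4 pain samples. Its log2 difference was 0.55 ± 0.23 (adjusted p = 0.0796, edgeR), opposite in sign to that of its partner subunit Cacna1s. Jsrp1, which encodes the junctional protein JP-45 that binds the voltage sensor and calsequestrin, ranged from 419 to 588.4 CPM in controls and from 344.6 to 907.6 CPM in sedentary pain, and the log2 difference was 0.20 ± 0.27 (adjusted p = 0.588).

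Calcium storage, buffering and uptake genes also missed the threshold in this fit. Casq1 lay between 3206 and 5148 CPM in female controls and between 2278 and 5030 CPM in sedentary pain (log2 difference -0.26 ± 0.27, adjusted p = 0.457, edgeR). Pvalb lay between 10895 and 13676 CPM in controls and between 7149 and 18306 CPM in sedentary pain (log2 difference -0.04 ± 0.27, adjusted p = 0.911). The groups overlapped for both genes, and the pain samples were spread more widely than the controls.

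Atp2a1, the fast-fibre calcium pump, had 40568, 33683, 28246 and 32162 CPM in female controls against 28172, 34494, 19824 and 16494 CPM in sedentary pain. Sedentary pain replicate 2 lay above 3 of the 4 controls, while replicates 3 and 4 lay well below all of them. The log2 difference was -0.46 ± 0.24 (adjusted p = 0.141, edgeR). Atp2a1 passed as lower with the library number as a term (-0.50, adjusted p = 0.0425), where 37.1% of all genes were called, and with replicates 3 and 4 only (-0.75, adjusted p = 0.0469). Sln was at 1.21 to 1.56 CPM in controls and at 0.719, 3.85, 2.76 and 10.5 CPM in sedentary pain, a log2 difference of 1.68 ± 1.29 (adjusted p = 0.312). Next to the pump it inhibits, Sln was scarce in every sample.

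**Figure D2:**
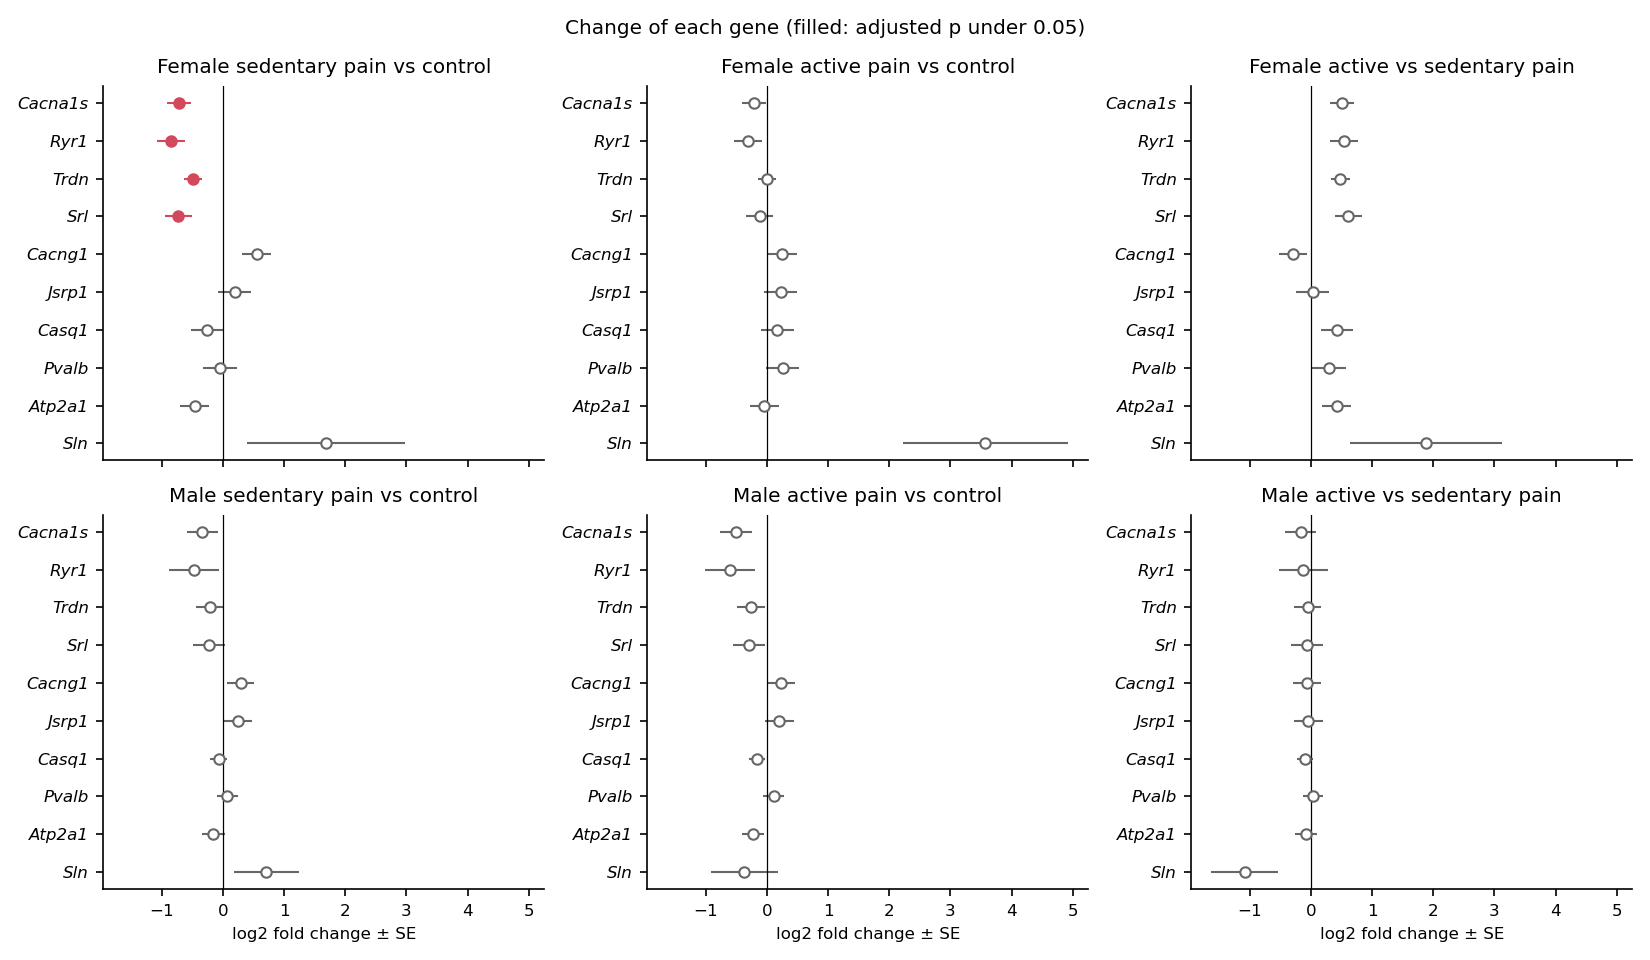
Log2 fold change (horizontal axes) of each gene with its standard error in the 6 comparisons within a sex, from edgeR fits of 12 samples each; filled points have an adjusted p under 0.05. Filled points appear for Ryr1, Cacna1s, Trdn and Srl in female sedentary pain against control and nowhere else.

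The 4 calls kept their sign within each pair of replicates. The number in the name of each library was 20 or lower for replicates 1 and 2 and 25 or higher for replicates 3 and 4 in every group, so both subsets were fitted on their own. Replicates 1 and 2 gave log2 differences of -0.85 for Ryr1, -0.68 for Cacna1s, -0.31 for Trdn and -0.66 for Srl. Replicates 3 and 4, which include the female pain samples with the highest macrophage marker levels, gave -0.82, -0.76, -0.68 and -0.79 in the same order. None of these 4 genes passed the test in either subset of 2 against 2. Atp2a1 was the single member called in replicates 3 and 4, where 22.4% of all genes were called, and no member was called in replicates 1 and 2, where 1.67% of all genes were. The part of the macrophage, neutrophil, adipocyte, fibroblast and mitochondrial differences in the changes was not tested.

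Leaving out single libraries showed how close to the threshold the calls lie. Without female control replicate 1 or female control replicate 2, 0 of the 10 genes were called, and 20.9% and 19.2% of all genes were. Without female sedentary pain replicate 4 or female control replicate 4, 2 were called, Ryr1 and Cacna1s, beside 16.9% and 21.3% of all genes. Without female control replicate 3, which had the highest adipocyte marker sum, 4 members and 30.8% of all genes were called. Without sedentary pain replicate 2 or 3, 3 members were called, Ryr1 and Cacna1s with Trdn or with Srl, beside 24.4% and 33.0% of all genes. Without sedentary pain replicate 1, the same 4 genes were called lower and Cacng1 higher, beside 44.9% of all genes. In a fit of only the 8 samples of these groups, 0 members and 20.1% of all genes were called. In a fit of all 24 samples 2 members were called, Cacna1s and Srl, beside 34.9% of all genes.

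The calls also depended on what the libraries were scaled to. When libraries were scaled to the summed counts of 20 fast contractile and glycolytic genes (Acta1, Ckm, Tnnt3 and others), the median of all genes shifted by 0.37 on the log2 scale, and 22.8% of all genes were called. On that scale Ryr1 stood at -0.50 (adjusted p = 0.106), Cacna1s at -0.38 (adjusted p = 0.149), Srl at -0.38 (adjusted p = 0.211) and Trdn at -0.16 (adjusted p = 0.520, edgeR). Cacng1 passed the test there as higher, at 0.93 (adjusted p = 0.0138), and was the only member called. All 4 differences were thus smaller than under TMM scaling and missed the threshold, and the median of the 10 genes was -0.06.

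**Figure D3:**
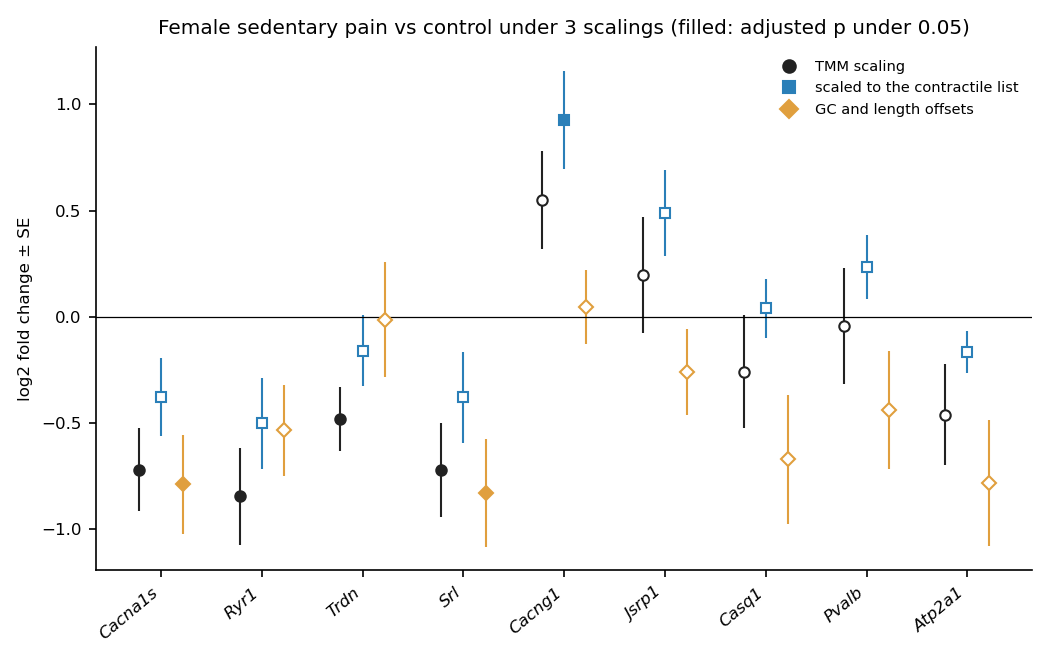
Log2 fold change with standard error (vertical axis) of 9 genes in female sedentary pain against control under TMM scaling (circles), scaling to the fast contractile and glycolytic list (squares) and offsets for GC content and length (diamonds); filled symbols have an adjusted p under 0.05. The filled circles are Cacna1s, Ryr1, Trdn and Srl, the filled square is Cacng1, and the filled diamonds are Cacna1s and Srl.

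Transcript length separated the called from the uncalled members. The exonic lengths were 21838 bases for Ryr1, 9352 for Trdn, 6550 for Cacna1s and 5325 for Srl, whereas the other 6 genes had at most 3477. Among all genes as long as Srl or longer, 20.2% were called lower in female sedentary pain and 13.3% higher, and among shorter genes 10.4% were called lower and 23.2% higher. With offsets for GC content and length, under which the median of all genes shifted by -0.12, Cacna1s (-0.79, adjusted p = 0.0224, edgeR) and Srl (-0.83, adjusted p = 0.0258) were called. Ryr1 stood at -0.53 (adjusted p = 0.0685) and Trdn at -0.01 (adjusted p = 0.974).

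Length was also followed library by library. The slope of log2 CPM on the log2 of exonic length over 14934 other genes, taken as a deviation from the mean of all samples, was -0.04 to 0.08 in female controls. It was -0.04, -0.23, -0.02 and -0.18 in female sedentary pain replicates 1 to 4, and -0.21 in male sedentary pain replicate 1. The mean log2 level of Ryr1, Cacna1s, Trdn and Srl minus that of Cacng1 and Jsrp1, a contrast chosen after the values were seen, was 1.67 to 2.35 in female controls and 0.38 to 1.58 in female sedentary pain. Its fall there was set by this choice, which takes the genes called lower and leaves out the short members Casq1, Pvalb, Atp2a1 and Sln. The 4 libraries with the lowest contrast were female sedentary pain replicates 2 and 4, male sedentary pain replicate 1 and male active pain replicate 2. Their slopes were -0.23, -0.18, -0.21 and -0.13. The order did not match throughout: female active pain replicates 1 and 3 had slopes of -0.12 and -0.14 with contrasts of 1.23 and 1.36, and female sedentary pain replicate 3 had a slope of -0.02 with a contrast of 1.38. The slopes of the other female active pain samples were 0.04 and -0.03, with contrasts of 2.14 and 1.80. The part of the length slope in the calls was not tested beyond the offsets above.

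**Figure D4:**
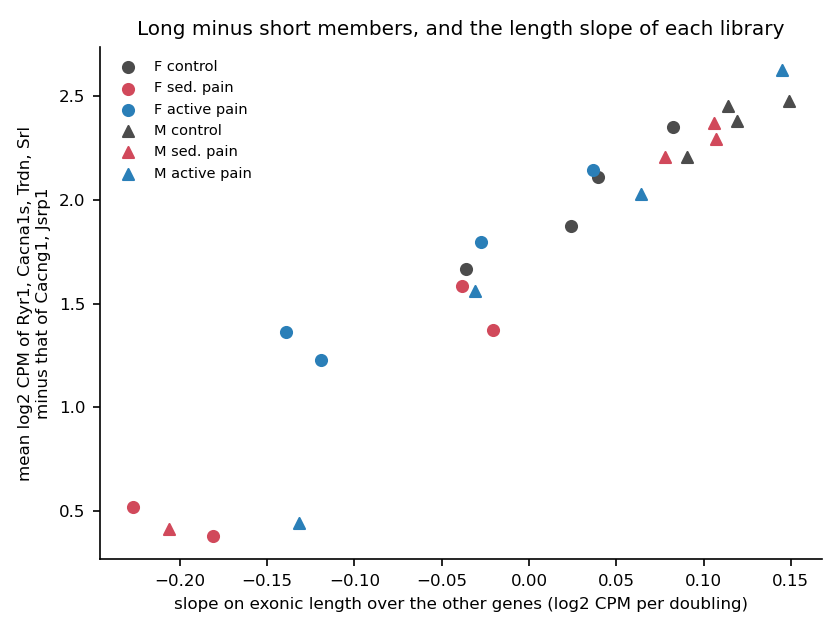
Mean log2 CPM of Ryr1, Cacna1s, Trdn and Srl minus that of Cacng1 and Jsrp1 (vertical axis) against the slope of log2 CPM on exonic length over other genes (horizontal axis, log2 CPM per doubling of length), with 1 point per sample. The contrast is lowest, between 0.38 and 0.52, in 4 samples whose slopes are -0.23 to -0.13; a sample with a slope of -0.14 has a contrast of 1.36.

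Other genes of the triad, the contact between tubule and reticulum, were also measured in sedentary females. Of 19 tested triad partners, 7 passed as lower and 1 as higher, with a median log2 change of -0.45, where 13.9% of all genes passed as lower and 19.6% as higher. Among genes as long as Srl or longer 20.2% passed as lower. With 1 surrogate variable, 0 triad partners passed as lower. The lower genes included Tmem38a (-0.73 ± 0.19, adjusted p = 0.0163, edgeR), a potassium channel of the reticulum that balances charge during calcium release. They also included the scaffold Homer1 (-0.92 ± 0.24, adjusted p = 0.0167) and Cacna2d1 (-1.07 ± 0.30, adjusted p = 0.0223), an auxiliary subunit of the same calcium channel as Cacna1s. Dysf, which encodes the membrane repair protein dysferlin, was the higher gene at 0.64 ± 0.21 (adjusted p = 0.0372). Casq2, the slow-fibre calsequestrin, stood at -1.07 (adjusted p = 0.0597), and Ryr3 was too low to be tested in females.

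Genes that set the fibre's excitability gave a similar count. Of 12 tested action potential genes, 7 passed as lower (median -0.72), and 0 did so with 1 surrogate variable. In the main fit 13.9% of all genes passed as lower, and 20.2% of the genes as long as Srl or longer. Kcnj12, an inward rectifier potassium channel, changed by -1.03 ± 0.24 (adjusted p = 0.0103, edgeR), the chloride channel Clcn1 by -1.11 ± 0.31 (adjusted p = 0.0193) and Abcc9, a regulatory subunit of the ATP-sensitive potassium channel, by -1.13 ± 0.32 (adjusted p = 0.0216). With 1 library left out, the count of lower genes was 2 to 7 here and 2 to 10 for the triad partners. It was 2 in both lists without female control replicate 1, without female control replicate 2 and without female sedentary pain replicate 4, and it was 3 here and 4 for the triad without sedentary pain replicate 2 or 3. Scaled to the contractile list, 0 genes of either list passed as lower, while 4 triad partners passed as higher. On that scale 22.8% of all genes were called.

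Calcium handling outside the triad was mixed. Among 6 tested uptake genes, the reticulum chaperone Calr was higher (1.12 ± 0.16, adjusted p = 0.0026, edgeR) and the pump inhibitor Pln was lower (-1.49 ± 0.37, adjusted p = 0.0129), each with groups that did not overlap. The other pump genes did not pass: Atp2a2 stood at -1.04 (adjusted p = 0.216), Atp2a3 at 0.48 (adjusted p = 0.237) and the pump regulator Mrln at -0.28 (adjusted p = 0.346). Of 19 calcium entry, exchange and mitochondrial uptake genes, 4 passed as higher and 3 as lower, in a comparison where 19.6% of all genes were called higher and 13.9% lower. The store sensor Stim1 was lower (-0.85 ± 0.20, adjusted p = 0.00972), while the channels it opens, Orai1 (0.70 ± 0.23, adjusted p = 0.0362) and Orai2 (2.78 ± 0.68, adjusted p = 0.0119), were higher. The mitochondrial sodium-calcium exchanger Slc8b1 was also higher (1.41 ± 0.41, adjusted p = 0.0245), and the plasma membrane calcium pump Atp2b3 (-1.14 ± 0.35, adjusted p = 0.0298) and exchanger Slc8a3 (-1.09 ± 0.39, adjusted p = 0.0472) were lower. With 1 surrogate variable in the fit, Slc8b1 gave -0.31 and Slc8a3 gave 0.072. Of 17 calcium signalling genes, 6 passed as lower and 0 as higher, among them the calcineurin subunit Ppp3cb (-0.84 ± 0.23, adjusted p = 0.0184), Camk2a (-0.81 ± 0.22, adjusted p = 0.0196) and the myosin light chain kinase Mylk2 (-0.96 ± 0.27, adjusted p = 0.0210). Scaled to the contractile list, 1 calcium signalling gene passed as lower and 1 as higher, and neither Pln nor Stim1 passed. There 22.8% of all genes were called.

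Contractile genes set the frame for these values. Of 20 fast contractile and glycolytic genes, 2 passed as lower, Actn3 (-0.67 ± 0.21, adjusted p = 0.0298, edgeR) and Myh2 (-1.74 ± 0.60, adjusted p = 0.0438), and 0 as higher. Of all genes 13.9% passed as lower and 19.6% as higher. The median of the 20 genes was -0.37, close to that of the 10 calcium genes at -0.36. None of 9 slow-fibre genes passed in either direction (median -1.44).

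Active females with pain were compared first with controls. edgeR called 0 of the 10 genes and 0 of all 14511 (0% of genes), although 1020 genes had an unadjusted p under 0.05 and DESeq2 called 124. The members' differences were positive for 6 and negative for 4, with a median of 0.09, and Sln was the member with an unadjusted p under 0.05. For each of the 10 genes the groups overlapped, against 5.44% of all genes whose groups did not.

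Sln, the pump inhibitor, was at 0.196, 1.70, 60.7 and 2.49 CPM in female active pain replicates 1 to 4. The difference from controls rested on replicate 3: the log2 difference was 3.57 ± 1.35 (adjusted p = 0.624, edgeR) with it and 0.11 without it. The slow myosin Myh7 was at 778.6 CPM in that same library, its highest level in the series.

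Active and sedentary females with pain received the same stimuli and differed in the running. Here 0 of the 10 genes passed edgeR's test, 4 had an unadjusted p under 0.05 and DESeq2 called 2, Trdn and Srl, as higher. Of all 14511 genes 11.9% were called, 2.51% as higher. The differences were positive for 9 of the 10 genes, and their median was 0.46, against 0.01 over all genes tested. This comparison uses the same sedentary pain samples as the one with controls, so the signs are not separate observations.

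Ryr1 in female active pain was at 2460, 3025, 2183 and 2368 CPM, just above the highest sedentary pain sample at 2172 CPM. The log2 difference was 0.54 ± 0.23 (adjusted p = 0.124, edgeR). Cacna1s at 988.3, 1062, 863.2 and 945.6 CPM also lay above all sedentary pain samples (0.51 ± 0.20, adjusted p = 0.0969). For these 2 members the groups did not overlap, where 11.8% of all genes did not overlap and 5.42% did so as higher in active pain.

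Trdn in female active pain had 1145, 1154, 1192 and 968.5 CPM, with the lowest value below the highest sedentary sample (0.48 ± 0.15, adjusted p = 0.0557, edgeR). Srl had 1422, 1455, 1148 and 1363 CPM (0.61 ± 0.22, adjusted p = 0.0843), and replicate 3 lay below sedentary pain replicate 1. The other members gave 0.42 ± 0.24 for Atp2a1 (adjusted p = 0.232), 0.43 ± 0.27 for Casq1 (adjusted p = 0.273) and 0.30 ± 0.27 for Pvalb (adjusted p = 0.450). Jsrp1 gave 0.03 ± 0.27 (adjusted p = 0.945), and Cacng1 had the single negative value, -0.29 ± 0.23 (adjusted p = 0.381). Sln gave 1.89 ± 1.24 (adjusted p = 0.300), and -1.60 without active pain replicate 3. With the library number (20 or lower against 25 or higher) as a term, 4 of the 10 genes passed as higher, namely Ryr1, Cacna1s, Trdn and Srl, and 18.9% of all genes were called in that fit.

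Around the members, 3 of 19 triad partners passed as higher in active than in sedentary females and 0 as lower, where 2.51% of all genes passed as higher. No gene of any list, and none of all genes tested, passed with 1 surrogate variable, with only the compared groups or with replicates 1 and 2 only. With 1 library left out, 0 to 8 triad partners passed as higher, beside 0 to 4316 calls among all genes. Scaled to the contractile list, 0 triad partners passed as higher and 2 as lower, and 15.7% of all genes were called. The 3 triad partners higher under TMM scaling were the calcium channel beta subunit Cacnb1 (0.55 ± 0.15, adjusted p = 0.0379, edgeR), Casq2 (1.42 ± 0.41, adjusted p = 0.0446) and Tmem38a (0.66 ± 0.19, adjusted p = 0.0453). Pln was higher (1.45 ± 0.37, adjusted p = 0.0333) and Calr lower (-0.81 ± 0.16, adjusted p = 0.0328). Stim1 (0.67 ± 0.20, adjusted p = 0.0467) and the calcineurin regulator Rcan2 (1.28 ± 0.33, adjusted p = 0.0333) were also higher. Of the action potential, contractile and slow-fibre lists 0 genes passed. Of the 10 macrophage and monocyte markers, 8 were lower in active females, whose summed levels were 259 to 543 CPM.

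In males no member passed any of the 3 comparisons. Against male controls, sedentary pain gave 0 calls among the 10 genes and 0% of all 14404 genes tested (edgeR; 1273 genes and 0 members at an unadjusted p under 0.05, and 270 genes and 0 members by DESeq2). The members' differences were negative for 6 and positive for 4, with a median of -0.11. Ryr1 and Cacna1s had groups that did not overlap, both lower, where 8.07% of all genes did not overlap and 4.12% did so as lower.

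Ryr1 in male controls was at 5619, 4979, 4364 and 4802 CPM and in male sedentary pain at 1738, 3954, 4176 and 4168 CPM. All 4 pain samples lay below the controls, but 3 of them only just, and replicate 1 lay far below the rest. The log2 difference was -0.47 ± 0.41 (adjusted p = 0.649, edgeR), and -0.25 without that replicate. Cacna1s was at 1326, 1364, 1199 and 1228 CPM in male controls and at 628.9, 1083, 1168 and 1126 CPM in sedentary pain, with a log2 difference of -0.33 ± 0.26 (adjusted p = 0.643) and of -0.17 without replicate 1.

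Trdn in male sedentary pain was at 865.3, 1294, 1216 and 1281 CPM, against 1207 to 1474 CPM in controls (-0.21 ± 0.22, adjusted p = 0.665, edgeR). Srl was at 970.3, 1991, 1902 and 1890 CPM, against 1902 to 2063 CPM (-0.23 ± 0.26, adjusted p = 0.675), and at -0.04 without replicate 1. In that replicate Cacng1 and Jsrp1 were instead the highest of the group, at 688.7 and 783.6 CPM against at most 373.6 and 432.4 CPM in the others. The same library had the highest neutrophil marker sum in the series, 288 CPM, and a macrophage marker sum of 871 CPM against 152 to 532 CPM in the rest of its group. The part of these cells in the result was not tested.

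Male active pain against male controls gave 0 calls among the 10 genes and 0% of all genes (edgeR; 1045 genes and 0 members at an unadjusted p under 0.05, 127 genes and 0 members by DESeq2). The differences were negative for 7 members and positive for 3, with a median of -0.24, and for 0 of the 10 did the groups separate, against 10.4% of all genes. Ryr1 in male active pain spread from 1006 to 5263 CPM, and replicate 2 held the lowest Ryr1, Trdn, Srl, Cacna1s and Atp2a1 of its group. Male active against sedentary pain gave 0 calls as well (edgeR, 0% of genes; 121 genes and 0 members at an unadjusted p under 0.05, 0 genes by DESeq2), with 9 negative and 1 positive difference, a median of -0.07, and 0 members with separate groups against 0.646% of all genes.

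Whether females and males responded differently was tested as an interaction over all 24 samples and 15103 genes. edgeR called 0 of the 10 members and 0% of all genes in each of the 3 interactions. For active against sedentary pain, 2174 genes were called without male sedentary pain replicate 1 and 622 without female sedentary pain replicate 1, with 0 members in both fits. With no adjustment, 1446 genes and 0 members had a p under 0.05 for sedentary pain against control, 307 genes and 1 member (Sln) for active pain against control, and 2224 genes and 0 members for active against sedentary pain. DESeq2 called 15, 3 and 111 genes in that order and 0 members. For sedentary pain against control, the female minus male difference of the log2 changes was -0.33 ± 0.48 for Ryr1 (adjusted p = 0.821, edgeR), -0.35 ± 0.33 for Cacna1s (adjusted p = 0.750), -0.24 ± 0.27 for Trdn (adjusted p = 0.783) and -0.46 ± 0.35 for Srl (adjusted p = 0.704). The calls made in females alone are therefore not shown to be a sex difference.

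Without pain, the release machinery stood higher in male than in female controls for 3 of the 10 genes by rank only. Ryr1, Trdn and Srl were higher in every male control than in every female control, where 22.3% of all genes did not overlap and 13% did so as higher in males. The length slope described above did not overlap either, at 0.09 to 0.15 in male and -0.04 to 0.08 in female controls, and these 3 genes are among the 4 longest members. The part of the slope in this difference was not tested. By edgeR 0 members were called (0 also at an unadjusted p under 0.05 and 0 by DESeq2), while 2.83% of all genes were called. Srl, for example, was at 1902 to 2063 CPM in male and 1129 to 1663 CPM in female controls. Of the related genes, Ryr3 (2.04, adjusted p = 0.0126) and the inositol trisphosphate receptor Itpr1 (1.21, adjusted p = 0.000549) passed as higher in males.

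Across the 24 samples the members fell into blocks that varied together. These correlations of log2 CPM are descriptions: the 24 samples share groups, depth and library properties. Ryr1, Cacna1s, Trdn and Srl correlated with one another at Pearson's r of 0.885 to 0.949. Pvalb and Jsrp1 correlated at 0.881, Casq1 and Pvalb at 0.83, and Cacng1 and Jsrp1 at 0.756. Cacng1 and Jsrp1 were negative against each of Ryr1, Cacna1s, Trdn and Srl, with -0.527 for Ryr1 and Jsrp1 and -0.577 for the channel subunits Cacna1s and Cacng1. Casq1 was positive against those 4 genes, at 0.28 to 0.463, and Pvalb was at -0.185 to 0.0712 against them. Atp2a1 correlated with members of both, at 0.811 with Casq1 and 0.796 with Cacna1s. For Sln, r with the other members ran from -0.371 (Srl) to 0.134 (Jsrp1), with -0.266 for Cacna1s and -0.247 for Ryr1.

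**Figure D5:**
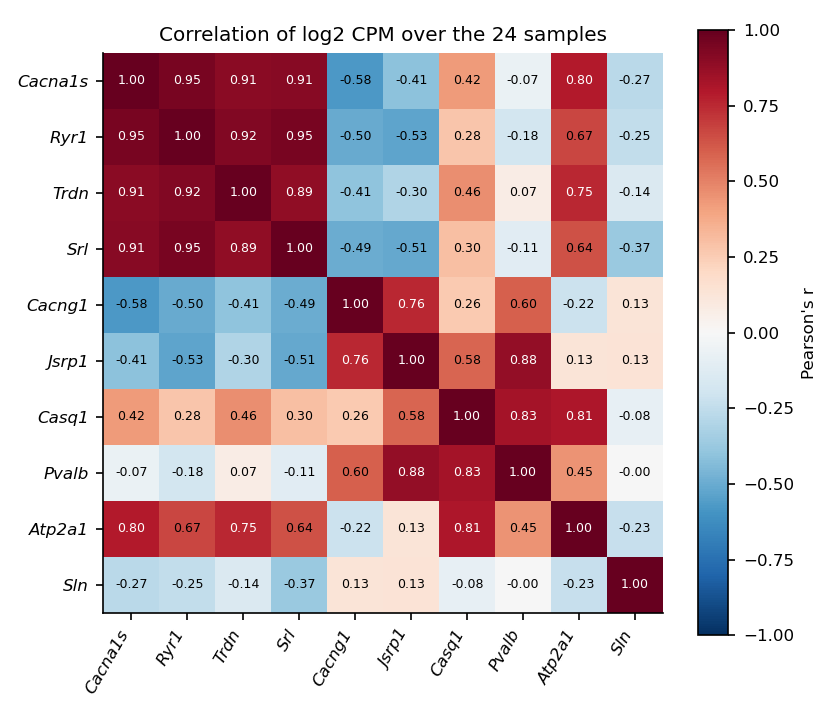
Pearson's r of log2 CPM between each pair of the 10 genes over the 24 samples (colour scale from -1 to 1, with the value in each cell). Ryr1, Cacna1s, Trdn and Srl form a block of values from 0.885 to 0.949, and Cacng1 and Jsrp1 are negative against them.

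Beyond the 10 genes, the 5 genes of 7387 with mean levels of at least 10 CPM whose pattern was most like that of Atp2a1 over the 24 samples were Spg7 (r = 0.964), Amz2 (0.939), Dctn1 (0.935), D17Wsu92e (0.932) and Hrc (0.931). Hrc encodes a calcium-binding protein of the reticulum. For Sln the most similar were Tpm3 (0.624), Cxcl10 (0.584), Lbr (0.578), Acod1 (0.568) and Rsad2 (0.565). Its highest level was 60.7 CPM in 1 library, against a median of 1.46 CPM over the 24 samples. The ranking was not repeated without that library.

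The spread among controls differed from gene to gene. Among the 4 female controls the coefficient of variation was 10.4% for Pvalb, 15.3% for Atp2a1, 22.7% for Ryr1 and 4.19% for Trdn, and among the 4 male controls it was 5.73%, 3.83%, 10.5% and 8.24% in the same order. Over all 24 samples the highest level exceeded the lowest by 5.58-fold for Ryr1 and 3.81-fold for Srl, and by 2.32-fold to 2.91-fold for the other members except Sln. These ratios include the differences between groups and sexes.

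In the GRCm38 annotation all 10 are protein-coding genes. Ryr1 lies on chr7:29003344-29125179 (minus strand), Cacna1s on chr1:136052750-136119822 (plus), Trdn on chr10:33080554-33476709 (plus), Srl on chr16:4480216-4541816 (minus), Cacng1 on chr11:107703218-107716522 (minus) and Jsrp1 on chr10:80808496-80813498 (minus). Casq1 lies on chr1:172209894-172219868 (minus), Pvalb on chr15:78191114-78206400 (minus), Atp2a1 on chr7:126445858-126463108 (minus) and Sln on chr9:53850164-53854560 (plus). Atp2a1 overlaps Rabep2 on the other strand, which had at most 231 counts in any sample against at least 416274 for Atp2a1.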

How the data were processed

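RNA-seq gene counts from 24 left gastrocnemius samples (6 groups of 4) were deposited by the authors as 1 table of raw, whole-number counts per sample. Per the labels' protocols, total RNA from a fibrous-tissue kit went into Illumina TruSeq stranded libraries. Per the submitters' processing notes, HISAT2 2.1.0, Salmon 0.9.1, featureCounts and DESeq2 1.24.0 were used with mm10/GRCm38.p6. Which of them made the counts, the annotation and whether strand was used are not given in the sources used here. Without strand, reads of overlapping genes on opposite strands cannot be told apart.

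Genes were named with GENCODE M21 (GRCm38), in which 54495 of 54532 identifiers were found. Counts were fitted with edgeR 4.0.16 in R 4.3.3 (TMM, filterByExpr with a minimum count of 10, robust quasi-likelihood fit and F test, two-sided, Benjamini-Hochberg over all genes tested, 0.05). Females and males had separate fits of 12 samples each, and interactions and the comparison of controls with all 24. Printed CPM of single genes come from 1 TMM scaling of all 24 libraries, so their ratios differ slightly from the fitted folds. Sums over marker genes were not TMM scaled. TPM used union exonic lengths, which for Trdn with its many isoforms makes levels look low. Alternatives were RLE scaling, DESeq2 1.42.0, no filter, other sets of samples in the fit, a replicate block, library number, 1 surrogate variable (sva 3.50.0), no mitochondrial genes, scaling to contractile genes, GC and length offsets, and each replicate left out. The procedure was tested on simulated counts.

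All 10 genes are named in every comparison, as are their paralogues and regulators Atp2a2, Atp2a3, Casq2, Ryr3, Pln and Mrln. From each pathway list up to 3 called genes in each direction with the smallest p are named, except that 1 result is not reported here. The members and lists were chosen with earlier results of these data known. Genes outside this rule (Myh7, Itpr1) were named after their values were seen.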

Additional observations from a re-analysis of the deposited data

Results flagged for a closer look

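Each gene was examined in each group of 4 samples for a sample far from the other 3 (by the gap to its nearest neighbour relative to the range, Dixon's test). Of 60 such groups 8 stood out, and chance alone gives about 1 in 20. Of these, 5 are the same library, male sedentary pain replicate 1. It was the lowest of its group for Ryr1 at 1738.3 CPM, Cacna1s at 628.87 CPM and Srl at 970.32 CPM, and the highest for Cacng1 at 688.69 CPM and Jsrp1 at 783.64 CPM. The other 3 concern the pump inhibitor Sln, at 60.742 CPM in female active pain replicate 3, 3.8115 CPM in male control replicate 2 and 2.3689 CPM in male active pain replicate 1. The last 2 are levels near the detection limit.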

How the results depend on the processing

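The count of members called in female sedentary pain against control was 4. It was 0 with 1 surrogate variable, with only the compared groups or with replicates 1 and 2 only, 1 when scaled to the fast contractile and glycolytic list or with replicates 3 and 4 only, 2 with GC and length offsets or all 24 samples in 1 fit, and 5 with library number as a term. The member called was Cacng1 (higher) under the contractile scaling and Atp2a1 (lower) with replicates 3 and 4, and Atp2a1 was the one added with library number. Leaving out 1 replicate at a time gave 0 to 5. Over 21 alternatives Cacna1s was called in 14, Ryr1 in 12, Srl in 11 and Trdn in 9. The subsets by library number were chosen after seeing the data. For active against sedentary females the count was 0, and 2 with DESeq2, 4 with library number as a term, 1 (Cacng1, lower) when scaled to the contractile list and 0 to 2 with a replicate left out (2 without female sedentary pain replicate 1, 1 without its replicate 2). In all other comparisons 0 members were called under every alternative that was run. GC and length offsets and a surrogate variable were run only within a sex.

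For the changes printed in the report, signs changed as follows; the cause was not tested. In female sedentary pain against control, the surrogate variable gave 0.041 for Atp2a1, 0.14 for Casq1, 0.13 for Pvalb, -2.40 for Sln, 0.072 for Slc8a3 and -0.31 for Slc8b1. The contractile scaling gave 0.040 for Casq1 and 0.23 for Pvalb, the GC and length offsets -0.26 for Jsrp1, replicates 1 and 2 gave 0.23 for Pvalb, and replicates 3 and 4 gave -0.085 for Jsrp1. With 1 replicate left out Jsrp1 ranged from -0.13 to 0.39 and Pvalb from -0.34 to 0.16. In active against sedentary females, the surrogate variable gave -0.038 for Ryr1, the contractile scaling -0.066 for Pvalb and -0.35 for Jsrp1, and replicates 1 and 2 gave -0.048 for Pvalb, -0.25 for Jsrp1 and -1.18 for Sln. Leaving out 1 replicate gave -0.17 to 0.34 for Jsrp1 and -1.60 to 2.75 for Sln. In active females against controls, replicates 1 and 2 gave -0.37 for Sln. In male sedentary pain against control, the surrogate variable gave 0.11 for Ryr1, 0.035 for Cacna1s, 0.10 for Trdn and 0.16 for Srl, and the offsets gave 0.081 for Trdn. Over all 10 members and all alternatives, signs changed in 13 of 210 values for female sedentary pain against control, 12 of 210 for active against sedentary females, 20 of 210 for active females against controls, 20 of 210 for male sedentary pain and 13 of 210 for male active pain against controls, 28 of 210 for male active against sedentary pain, 11, 16 and 10 of 220 for the 3 interactions and 11 of 140 between the controls of each sex, none of them in a called value.

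Over all genes, calls in female sedentary pain against control numbered 4867, and 114 with the surrogate variable, 238 with replicates 1 and 2 and 2847 with only the compared groups. Active against sedentary females gave 1730 genes, and 0 with the surrogate variable, with only the compared groups or with replicates 1 and 2, 174 without a filter, 2745 with library number and 3010 with DESeq2. With 1 replicate left out that comparison gave 0 to 4316 genes. The interaction for active against sedentary pain gave 0 genes, 2174 without male sedentary pain replicate 1 and 622 without female sedentary pain replicate 1. The control comparison between sexes gave 427 genes, 720 with DESeq2 and 213 with the contractile scaling.

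The labels do not say whether samples with the same replicate number pair across groups. The correlation of their deviations was -0.32 to 0.42 over 12 female pairs (mean 0.109) and -0.65 to 0.59 over 12 male pairs (mean 0.0131). Values this scattered cannot settle it. A fit with the replicate block called 4 members in female sedentary pain against control, as without it, and 3739 genes. It called 0 members elsewhere. Depth did not limit the members except Sln, which had 4 to 1577 counts.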
